A study of Mus musculus with 3 samples.

Results

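Clusters 15, 17 and 21 are 3 small groups of olfactory bulb nuclei with messages of inhibitory neurons. They were taken from clusters 13 to 21 of the deposited annotation, which hold 2545 nuclei. UMIs (unique molecular identifiers, each standing for 1 captured transcript) were pooled per cluster and expressed as counts per 1000000 (CPM). The clusters were chosen by these levels, and a cluster was kept where Gad1, Gad2 and Slc32a1 each reached 25% of the highest of the 22 clusters. Cluster 15 had 301 nuclei, cluster 17 had 190 and cluster 21 had 103, together 594 of 31703. Each was set beside the 6 larger inhibitory clusters (0, 1, 3, 6, 7 and 8), which had 18891 nuclei. The authors formed the clusters from these same counts and the rule used them again, so all differences are given as descriptions without a test.

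The nuclei came from the olfactory bulbs of adult male C57Bl/6 mice of 7 weeks, in 1 group of 3 mice with 1 library each. All mice had received the virus retroAAV-CAG-H2B-GFP, which travels backwards along axons and makes nuclei fluoresce, in the piriform cortex and the anterior olfactory nucleus. Nuclei were sorted for this GFP and for a DNA dye, with a gate against doublets, before droplet-based sequencing. The sort aimed at projection neurons, and how the inhibitory nuclei entered it was not tested here, so their shares are those of the sort, not of the bulb. No untreated mice were sequenced.

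Inhibitory neurons make GABA with 2 glutamate decarboxylases, encoded by Gad1 and Gad2, and load it into vesicles with the transporter encoded by Slc32a1. In the olfactory bulb they include granule cells, which lack an axon and contact mitral and tufted cells through their dendrites, periglomerular cells around the glomeruli, and interneurons of the external plexiform layer, many of which contain the calcium buffer parvalbumin or the peptides VIP and CRH. Deep short-axon cells form a further, rarer class. Most bulb interneurons are born in the lateral ventricular wall and keep arriving in adult life. Cortical interneurons come mostly from the medial and caudal ganglionic eminences.

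The values that chose the clusters differed among them. Cluster 15 reached 60.8% of the highest cluster for Gad1, 80.3% for Gad2 and 93.7% for Slc32a1. Cluster 17 passed more narrowly, with 39.4%, 26.6% and 53.6%, and cluster 21 reached 70.7%, 46.9% and 95.5%. Just outside the rule lay cluster 20, with 30.1%, 22.4% and 47.6%, and cluster 18, with 26.7%, 21.8% and 30.6%. Cluster 20 had the highest summed level of microglia markers of all clusters. Cluster 18 had the highest of endothelial and mural markers and of meningeal and fibroblast markers. For Gad2, cluster 17 thus lay only a little above clusters with markers of cells that are not neurons. Cluster 16, which has the highest levels of the myelin genes Mobp and Mog, still reached 25.9% for Gad1. UMIs of these genes were thus also counted in nuclei of clusters with glial, endothelial or fibroblast markers.

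**Figure D1:**
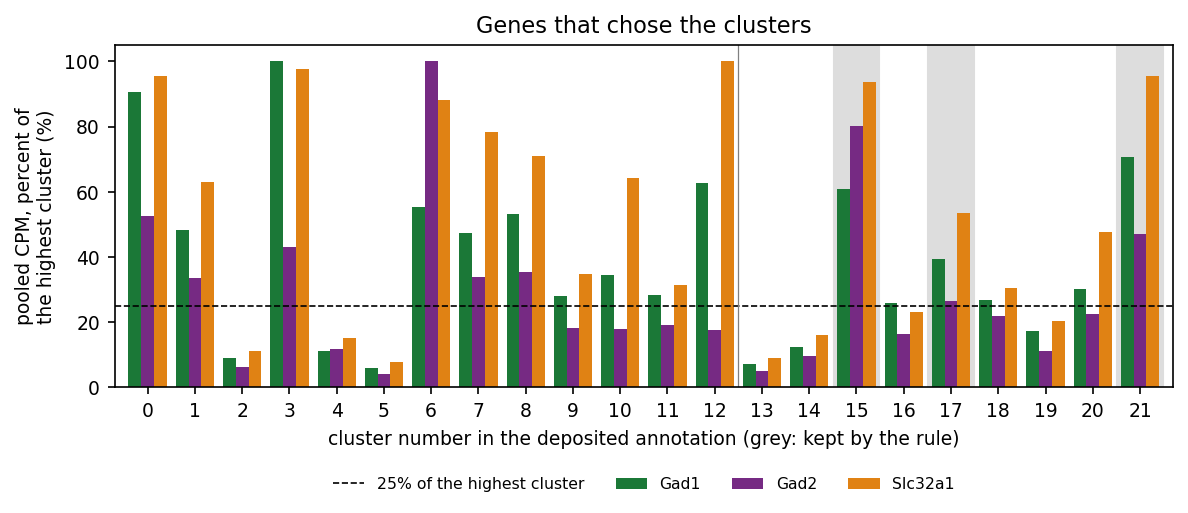
Bars give the pooled CPM of Gad1, Gad2 and Slc32a1 in each of the 22 clusters as a percent of the highest cluster, with a dashed line at 25% and the kept clusters shaded grey. Right of the vertical line, clusters 15, 17 and 21 have all 3 bars above 25%, and Gad2 in cluster 17 is the lowest of them at 26.6%.

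Each nucleus was therefore also thinned at random to 1500 UMIs, the same for all clusters. A UMI of Gad1 was then found in 62.5% of nuclei of cluster 15 (exact 95% interval 56.7 to 67.9), 48.4% of cluster 17 (41.1 to 55.8) and 69.9% of cluster 21 (60.1 to 78.5). Between 48.3% and 79.4% of nuclei had one in the 6 larger inhibitory clusters. The share was 27.6% in cluster 9, the highest of all for the astrocyte genes Aqp4 and Gja1, and 30.9% in cluster 16. Gad2 was detected in 63.8% of nuclei of cluster 15, in 23.2% of cluster 17 (17.4 to 29.8) and in 43.7% of cluster 21, against 13.6% in cluster 9 and 16.0% in cluster 16. For Slc32a1 the shares were 32.6%, 16.8% (11.8 to 22.9) and 33.01%, against 9.51% and 7.45%. The clusters were chosen by these genes, so their order against clusters that were not kept was largely fixed by the choice. No cluster of glia other than 9 and 16 was thinned. These intervals are over nuclei and cover counting error only.

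The clusters were rare in every mouse. Cluster 15 made up 1.15% of nuclei in mouse 1 (67 nuclei, exact 95% interval 0.889 to 1.45), 0.952% in mouse 2 (201 nuclei, 0.826 to 1.09) and 0.694% in mouse 3 (33 nuclei, 0.478 to 0.974), a mean of 0.931% ± 0.227 (SD, n = 3 mice). Cluster 17 made up 0.650%, 0.625% and 0.421% (38, 132 and 20 nuclei), a mean of 0.565% ± 0.126. Cluster 21 made up 0.154%, 0.374% and 0.316% (9, 79 and 15 nuclei), a mean of 0.281% ± 0.114. The order of the clusters was the same in each mouse.

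They also differed in depth. Cluster 15 had median UMI numbers per nucleus of 8276, 8461 and 9310 in mice 1, 2 and 3, close to the median of all nuclei of its mice (0.881 to 1.04 times). Cluster 17 was deeper, with 15512, 16725.5 and 20186 UMIs, which is 1.91 to 1.99 times the mouse median. Cluster 21 was shallow, with 2426, 2034 and 3082 UMIs (0.242 to 0.306 times). The median share of mitochondrial UMIs was 0.064% to 0.155% in cluster 15, 0.0255% to 0.0505% in cluster 17 and 0.355% to 0.392% in cluster 21. Cluster 21 thus combined the lowest depth with the highest mitochondrial share of the inhibitory clusters shown, without overlap between mice.

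**Figure D2:**
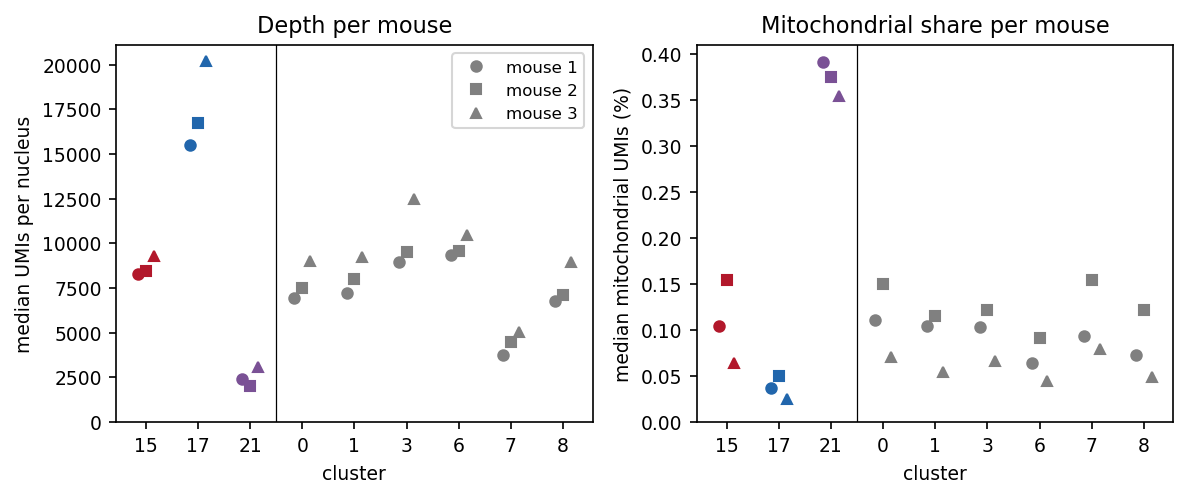
The left panel gives the median UMI number per nucleus and the right panel the median mitochondrial share in percent, per mouse (marker shape), for the kept clusters left of the line and the 6 larger inhibitory clusters right of it. Cluster 17 is deepest in every mouse (15512 to 20186) and cluster 21 shallowest (2034 to 3082), and cluster 21 alone exceeds 0.3% on the right.

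The whole series rests on 5845, 21105 and 4753 nuclei with 58526996, 213891496 and 62929479 UMIs in mice 1, 2 and 3. The kept clusters hold 2845189 (cluster 15), 3446528 (cluster 17) and 369461 (cluster 21) of these, so that 1 UMI equals 47.5 CPM in cluster 21 of mouse 1. Of the nuclei, 82 barcodes occur in more than 1 library, 5 of them with a nucleus in a kept cluster and 0 with both nuclei in the same kept cluster. No doublet caller was run, and the deposited table has no doublet label.

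The profiles were compared over genes as log2(CPM + 5). Cluster 15 was most like cluster 7 (Pearson r = 0.92 across 14723 genes), which has the highest level of the calretinin gene Calb2. Cluster 17 was most like cluster 8 (r = 0.93), which has the highest level of the transcription factor gene Foxp2. Cluster 21 was most like cluster 0 (r = 0.88), the largest inhibitory cluster. Genes are not independent and the clusters share libraries, so these values only describe the order.

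To describe each cluster, its CPM + 5 in a mouse was divided by the mean CPM + 5 of the 6 larger inhibitory clusters in the same mouse. A gene counted as higher or lower where this ratio passed 4-fold in every mouse. For cluster 15 this held for 85 of 11166 genes in the higher direction, a background of 0.761%, and for 82 in the lower direction, or 0.734%. Cluster 15 had the highest level of all 22 clusters for 59 of the 85 genes, and 32 genes stood past 4-fold above even the highest of the 6 clusters in every mouse.

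Peptide messages headed cluster 15. Vip, the gene of vasoactive intestinal peptide, stood at 3255, 1924 and 1862 CPM in mice 1, 2 and 3, against a mean of 13.5 CPM in the 6 clusters, a log2 ratio of 7.04 ± 0.79 (SD, n = 3 mice). Its lowest mouse lay far above the highest of the 6 clusters, cluster 7, at 47.8 CPM. Pnoc, which encodes the precursor of nociceptin, stood at 616, 345 and 337 CPM against 4.67 (5.45 ± 0.31). Crh, the gene of corticotropin-releasing hormone, stood at 362, 162 and 214 CPM against 2.56 (4.98 ± 0.68). Both were thus low in all 6 larger clusters.

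Tac2, which encodes neurokinin B, stood at 334, 252 and 217 CPM against 4.26 (4.91 ± 0.40). Sst, the somatostatin gene, stood at 652, 281 and 240 CPM against 8.14 (4.88 ± 0.35). Mouse 1 was the highest for all 5 peptides, and no mouse overlapped with the 6 clusters for any of them. Of the 36 genes on a list of neuropeptides, 21 reached 10 CPM in cluster 15 or one of the 6 clusters. Of these, 6 were past 4-fold higher (the named 5 and Vgf, a granin-family gene, with 400, 140 and 198 CPM against 37.3) and 1 was past 4-fold lower, beside 0.761% and 0.734% of all genes. The lower gene was Trh, of thyrotropin-releasing hormone, with 9.96, 29.5 and 3.24 CPM against 151. Of the named 5, Pnoc and Crh reached 10 CPM in cluster 15 but in none of the 6 clusters, so that their place among the 21 already required a higher level in cluster 15.

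**Figure D3:**
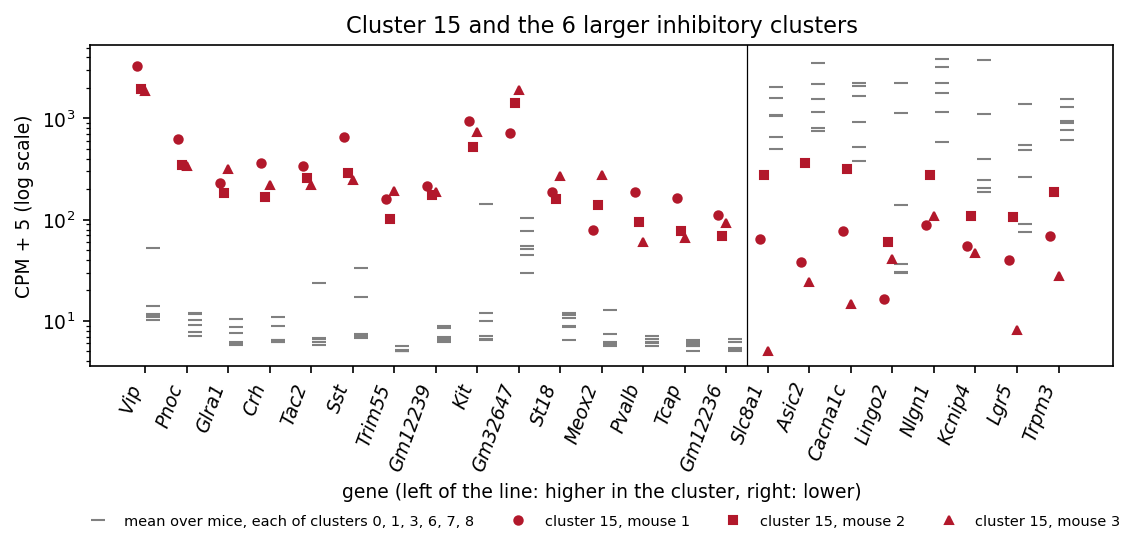
Markers give CPM + 5 on a log axis in cluster 15 of each mouse for its 15 highest and 8 lowest genes by log2 ratio, and grey dashes give the means over mice of each of the 6 larger inhibitory clusters. Left of the line every mouse is above all dashes for each gene, with Vip at 1862 to 3255 CPM, while right of the line the mice spread widely, from 0 to 268 CPM for Slc8a1.

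Transcription of some peptide genes is known to respond to cyclic AMP through a promoter element whose full letters are TGACGTCA. The promoters of 3 of the 5 peptide genes were in the RefSeq promoter table (build GRCm38.p6) and are shown because these messages share nuclei. Each runs from 250 bases before to 50 bases after the start given with these promoters, in the direction of transcription. Capitals mark TGACGT or its reverse complement ACGTCA.
Vip: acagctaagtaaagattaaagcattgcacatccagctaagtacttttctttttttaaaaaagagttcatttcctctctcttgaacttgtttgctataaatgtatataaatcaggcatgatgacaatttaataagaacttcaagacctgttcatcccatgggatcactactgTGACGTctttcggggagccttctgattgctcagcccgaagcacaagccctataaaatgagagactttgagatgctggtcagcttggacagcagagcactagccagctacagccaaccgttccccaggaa
Tac2: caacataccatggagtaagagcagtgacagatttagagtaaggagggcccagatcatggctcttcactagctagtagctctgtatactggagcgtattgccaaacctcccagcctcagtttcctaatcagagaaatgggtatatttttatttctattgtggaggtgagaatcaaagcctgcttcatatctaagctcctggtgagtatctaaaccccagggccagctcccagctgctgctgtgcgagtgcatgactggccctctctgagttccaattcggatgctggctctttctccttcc
Sst: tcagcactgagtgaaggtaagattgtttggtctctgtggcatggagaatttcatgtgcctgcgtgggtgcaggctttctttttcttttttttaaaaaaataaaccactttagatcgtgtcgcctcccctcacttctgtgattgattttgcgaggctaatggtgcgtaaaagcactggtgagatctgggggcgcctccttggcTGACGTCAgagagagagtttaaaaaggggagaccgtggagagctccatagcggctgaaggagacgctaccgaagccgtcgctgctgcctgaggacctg
The Vip sequence is chr10:5638968-5639267 on the + strand, the Tac2 sequence chr10:127724228-127724527 on the + strand and the Sst sequence chr16:23890795-23891094 on the − strand. Vip has 1 match, 79 bases before the start. Sst has 2 matches that overlap and make up the full TGACGTCA, 48 bases before the start. Tac2 has 0 matches in this window. In the GENCODE annotation Sst reaches 23890958 on the − strand, so there the start used here and the match lie inside the gene. Of all 32851 promoters in the table, 7.51% hold the 6-letter motif on either strand and 1.79% the full element, so a match is a description of the letters and not of a site in use.

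Vip occurred in the same nuclei as each of the other peptides. Without thinning, 4 of the 301 nuclei of cluster 15 had no UMI of the 5 peptide genes, 8 had a UMI of only 1 gene, 82 of 2, 135 of 3 and 72 of 4 or more. At 1500 UMIs per nucleus, 59.1% still had 2 or more of these messages. In the 6 larger clusters this share was at most 0.714%, in cluster 7, and in glial clusters 9 and 16 it was 0.264% and 0%. Vip alone was found at this depth in 80.1% of nuclei (exact 95% interval 75.1 to 84.4), with 89.6%, 77.1% and 78.8% in mice 1, 2 and 3. It was found in at most 4.78% of nuclei of the 6 clusters and in 2.55% of cluster 9. Pnoc was found in 35.5% of nuclei of cluster 15, Crh in 26.9%, Tac2 in 19.9% and Sst in 17.9%, each against at most 3.07% in the 6 clusters. Without thinning, Vip was found in 295 of the 301 nuclei, and the other peptides did not all go together. Tac2 was found in 28.4% of nuclei with Sst and 35.2% of those without, and Pnoc in 60.8% and 81.1%. Pnoc was also rarer with Tac2 (64.4% and 82.0%) but more frequent with Crh (82.0% and 68.2%). Crh differed little by Sst (59.5% and 56.4%) or Tac2 (54.5% and 58.5%). Depth was not made equal for these pairs.

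Glra1 and Kit were leading genes as well. Glra1, which encodes an alpha subunit of the glycine receptor, stood at 226, 178 and 311 CPM against 2.44 (log2 ratio 5.00 ± 0.43). Kit, the receptor of stem cell factor, stood at 939, 522 and 735 CPM against 25.7 (4.55 ± 0.30), and among the 6 clusters only cluster 6 came near, at 137 CPM. Htr3a, a subunit of the serotonin-gated channel, stood at 133, 107 and 110 CPM against 3.77 (3.79 ± 0.11). Its spread between mice was the smallest of the 4 genes given here. Adra1b, an alpha-1 adrenergic receptor gene, stood at 128, 68.3 and 84.2 CPM against 8.99 (2.77 ± 0.41). Of 16 listed monoamine and acetylcholine receptor genes at 10 CPM Htr3a and Adra1b were higher, beside 0.761% of all genes, while Htr1f was lower, beside 0.734%, with 56.4, 100.3 and 12.95 CPM against 653.

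Some listed channel and adhesion genes were past 4-fold, and their counts stand beside 0.761% higher and 0.734% lower over all genes. Kcnc1, a potassium channel of fast-spiking neurons, stood at 533, 432 and 564 CPM against 96.6 (2.33 ± 0.25) and was the only one of 41 listed potassium and HCN channel genes past 4-fold higher. The sodium channel gene Scn9a (2.50 ± 0.26) and Cacna2d3 (2.39 ± 0.38), an auxiliary calcium channel subunit, were higher as well, of 25 listed. The cadherin gene Cdh12 reached 4098, 3718 and 4635 CPM against 418 (3.30 ± 0.15), and Tenm1, a teneurin, 1269, 863 and 1195 CPM against 145 (2.88 ± 0.17). These were the 2 higher of 66 listed adhesion and guidance genes, 7 of which were lower.

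Listed transcription factor genes were past 4-fold in both directions, beside 0.761% higher and 0.734% lower over all genes. Prox1, a homeobox gene used in many interneuron lineages, stood at 97.9, 66.7 and 71.2 CPM against 0.734 (3.85 ± 0.33), and the zinc finger gene St18 at 181, 154 and 262 CPM against 4.73 (4.35 ± 0.36). Prox1 reached at most 1.66 CPM in the larger inhibitory clusters (mice pooled) and St18 at most 7.13 CPM (mean over mice). Both thus passed the filter of 10 CPM only through cluster 15. Their place among the listed genes already required a higher level there. Meis2, a homeobox gene of granule cells and other interneurons of the lateral lineage, stood at 355, 727 and 74.5 CPM against 3020 (−3.46 ± 1.60). Its level was thus low in all mice but differed among them. Meis1, Foxp2 and Bcl11a were lower too, among 42 listed at 10 CPM, and the median of the 42 was −1.03. Meox2, a homeobox gene that the list did not hold, stood at 74.7, 135 and 269 CPM against 2.33 (4.31 ± 0.99). The noncoding gene Gm32647 was also among the leading genes (4.36 ± 0.73).

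The calcium buffer genes gave a mixed picture. Pvalb, of parvalbumin, stood at 181, 89.5 and 55.1 CPM against 1.29 (4.03 ± 0.66) and was the only one of 12 listed past 4-fold, beside 0.761% of all genes. Its highest level in the larger inhibitory clusters was 2.10 CPM, so it passed the filter of 10 CPM only through cluster 15. The place of Pvalb among the 12 thus already required a higher level there. Calb2 stood at 1372, 883 and 816 CPM against 503 (0.99 ± 0.18), below the 2446 CPM of cluster 7. Of 11 listed genes of GABA synthesis and transport, which include the genes of the rule, 0 were past 4-fold in either direction, and beside the 0.761% and 0.734% of all genes nothing is read from this count. Gad2 stood at 758, 631 and 538 CPM against 397, and the tyrosine hydroxylase gene Th, of dopamine synthesis, at 129, 78.6 and 87.4 CPM against 57.5.

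Trim55 and Tcap were leading genes of cluster 15 as well. Trim55, which encodes a ring finger protein of the sarcomere, stood at 154, 95.7 and 188 CPM and Tcap, of telethonin, at 158, 72.4 and 61.5 CPM, against 0.163 and 0.838 in the 6 clusters. Both had their highest level of the 22 clusters in cluster 15.

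Leading genes of cluster 15 also lie next to each other. Trim55 (chr3:19644474-19692421, + strand) ends 979 bases before Crh (chr3:19693401-19695396, − strand), the 2 genes pointing towards each other. Crh was nevertheless found in 58.2% of nuclei with a Trim55 UMI and in 56.7% of those without. On chromosome 11, Glra1 (55514238 to 55608198, − strand) overlaps the antisense gene Gm12236 and lies 163889 bases from Gm12239 (+ strand), which in turn overlaps the neuromedin U receptor gene Nmur2 (− strand). All 4 were past 4-fold higher. Gm12239 was found in 75.7% of the 148 nuclei with a Glra1 UMI and in 24.8% of the others, whose median depths were 9730 and 6788 UMIs. Overlapping genes on opposite strands can share reads where counting ignores strand, and Gm12239 is also expressed in the astrocyte cluster 9, in 25.3% of nuclei at 1500 UMIs.

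Cluster 15 was checked against marker lists. It carried 5 of 6 markers of external plexiform layer interneurons at 25% or more of the highest cluster (Pvalb, Crh, Vip, Cnr1 and Kcnc1), and was itself the highest cluster for these. The sixth, Tac1, had no UMI in cluster 15, where a count of 0 allows up to 1.05 CPM. The summed level of the list was 2663 to 4458 CPM over mice, against 73.3 to 240 CPM in the 6 clusters. The cluster is therefore called external-plexiform-layer-interneuron-like. It also carried 3 of 7 markers of caudal ganglionic eminence interneurons (Prox1, Vip and Htr3a) and 3 of 7 of the medial eminence (Sst, Pvalb and Satb1). Further, it carried 4 of 9 of granule cells (Synpr, Pcp4, Penk and Inpp5j), 3 of 8 of periglomerular cells (Th, Calb2 and Dlx2) and 8 of 12 of immature neurons. Of striatal projection neurons it carried 3 of 10 (Rgs9, Pde10a and Penk) and had the highest summed list of the 22 clusters. That list summed to 1043 to 1331 CPM over mice, against 397 to 1152 CPM in the 6 clusters. Of deep short-axon cells 2 of 6 were carried (Sst and Penk). Lhx6 and Nkx2-1 had 0 UMIs, but their highest levels in any of the 22 clusters were 0.978 and 0.376 CPM, below the limit that a count of 0 allows here. Astrocyte, oligodendrocyte and microglia lists had 0 markers carried in any kept cluster. Since the levels of these genes formed the cluster, the name restates them.

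Cluster 15 was not uniform. A UMI of Tac2 was found in 101 nuclei and of Pvalb in 111, but of both in only 8. Pvalb was found in 7.92% of nuclei with Tac2 and in 51.5% of the 200 without, and the order was the same in mouse 1 (22.2% and 63.3%), mouse 2 (5.63% and 50%) and mouse 3 (0% and 33.3%). The nuclei with Tac2 had the lower median depth, 6586 against 9226 UMIs. Thinned to 4000 UMIs, which left out 13 nuclei, Pvalb was found in 2.33% of nuclei with Tac2 and 34.2% of those without. The low overlap was thus present at equal depth as well.

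Meox2 went with Tac2. It was found in 74.3% of nuclei with Tac2 and 6.50% of those without, and in mice 1, 2 and 3 these shares were 66.7% and 4.08%, 74.6% and 6.15%, and 83.3% and 14.3%. At 4000 UMIs they were 67.4% and 7.92%. Glra1 and Kit went the other way. Glra1 was found in 14.9% of nuclei with Tac2 and 66.5% of those without (12.8% and 49.0% at 4000 UMIs), and Kit in 40.6% and 91.5% (32.6% and 84.7%). Prox1 was found in 11.9% and 40.5% (8.14% and 23.3%). The nuclei with Tac2 were thus high in Meox2 and low in Pvalb, Glra1, Kit and Prox1.

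In pooled CPM, the nuclei with and without Tac2 had 429 and 25.3 CPM of Meox2, 12.7 and 140 of Pvalb, 54.7 and 259 of Glra1, and 214 and 794 of Kit. Vip was present on both sides, at 3935 and 1537 CPM, as were Calb2 (1613 and 738 CPM) and Crh (248 and 196 CPM). Gad2 (641 and 651 CPM) and Sst (359 and 354 CPM) were nearly level. The division was made after values had been seen, and nuclei without a Tac2 UMI may still contain the message.

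**Figure D4:**
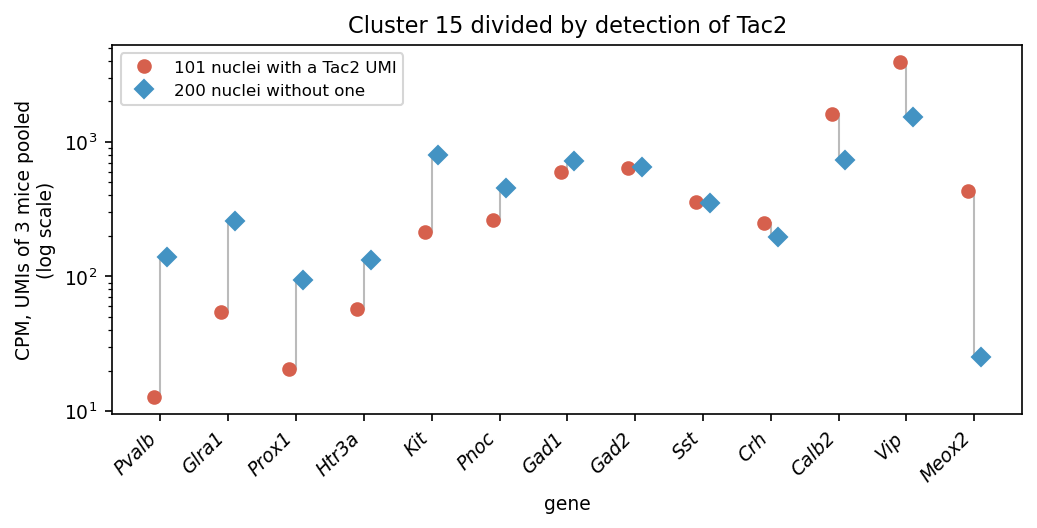
Points give the pooled CPM of 13 genes on a log axis in the 101 nuclei of cluster 15 with a Tac2 UMI (circles) and the 200 without (diamonds), joined by a line per gene. Pvalb (12.7 and 140 CPM) and Meox2 (429 and 25.3 CPM) lie far apart in opposite directions, while Gad2 and Sst nearly coincide.

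The lowest genes of cluster 15 differed between mice. Slc8a1, a sodium-calcium exchanger, stood at 59.7, 268 and 0 CPM against 1143 (−4.68 ± 3.03), and Cacna1c, a calcium channel subunit, at 73.0, 312 and 9.72 CPM against 1299 (−4.19 ± 2.18). Asic2, an acid-sensing channel, stood at 33.2, 358 and 19.4 CPM against 1656 (−4.57 ± 2.08). Mouse 2 was highest in each. Lingo2, Nlgn1, Kcnip4, Lgr5 and Trpm3 completed the 8 lowest, with log2 ratios between −3.83 and −4.08, and here too mouse 2 was highest. In the same mouse a Gad1 UMI was found in 35.0% of the astrocyte nuclei of cluster 9 at 1500 UMIs, against 15.4% and 10.5% in mice 1 and 3. The part of such UMIs in the spread between mice was not tested. Without mouse 2 the number of lower genes was 296 in place of 82, and 0 genes were past 4-fold below the lowest of the 6 clusters. Lower genes were 0.734% of all genes in the comparison over all mice. Among listed genes they were the glutamate receptor genes Grid1, Grm5 and Grm8 (3 of 24), the calcium channel genes Cacna1c, Cacna1e and Cacna2d1 (3 of 25), Kcnq3 and Kcnip4 (2 of 41), the matrix genes Col25a1, Fbn2 and Adamts19 (3 of 15), and Cntn3, Slit3, Efna5, Sema3e, Sema5a, Erbb4 and Nrg3 of adhesion and guidance.

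Cluster 17 was described in the same way. Of 11128 genes, 97 (0.872%) were past 4-fold higher in every mouse and 72 (0.647%) past 4-fold lower. It had the highest level of all 22 clusters for 63 of the 97. Against the highest of the 6 clusters, 19 genes were past 4-fold in every mouse.

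The leading gene, Npsr1, encodes the receptor of neuropeptide S. It stood at 427, 612 and 303 CPM against 2.32 (log2 ratio 5.90 ± 0.63), and no mouse came near the highest of the 6 clusters, at 3.52 CPM. Tmem132d, a transmembrane protein gene, stood at 1315, 1382 and 1156 CPM against 24.0 (5.50 ± 0.47). Sorcs1, a sorting receptor of the VPS10 family, stood at 2550, 2685 and 2490 CPM against 68.5 (5.15 ± 0.25). In each of these the highest of the 6 clusters was cluster 8. Of all 22 clusters, cluster 17 was highest for Npsr1 and Sorcs1, but cluster 4 was highest for Tmem132d.

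The next leading genes were Unc5d, Shisa6 and Col23a1. Unc5d, a netrin receptor gene, stood at 2990, 2803 and 3389 CPM against 87.6 (5.07 ± 0.25). Shisa6, an auxiliary protein of AMPA receptors, stood at 656, 946 and 672 CPM against 21.3 (4.85 ± 0.42), and Col23a1, a membrane collagen, at 826, 773 and 593 CPM against 23.0 (4.72 ± 0.39). The mice differed little in Unc5d, Shisa6 and Col23a1. Shisa6 was highest of all clusters in cluster 14, which also had the highest summed level of projection neuron markers. Of 65 listed adhesion and guidance genes 6 were higher (Cdh13, Cntn3, Cntnap5b, Robo2, Unc5d and Erbb4) and 3 lower (Pcdh9, Sema3e and Dcc), beside 0.872% and 0.647% of all genes, with a list median of 0.12 beside −0.16 over all genes. Erbb4, the neuregulin receptor, reached 9710, 9879 and 8873 CPM against 1683. Other leading genes were Sgpp2 (4.33 ± 0.29), a sphingosine phosphatase gene, Xylt1 (3.85 ± 1.41), which encodes a xylosyltransferase of proteoglycan synthesis, and Mcc, with 316, 333 and 284 CPM against 21.1.

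**Figure D5:**
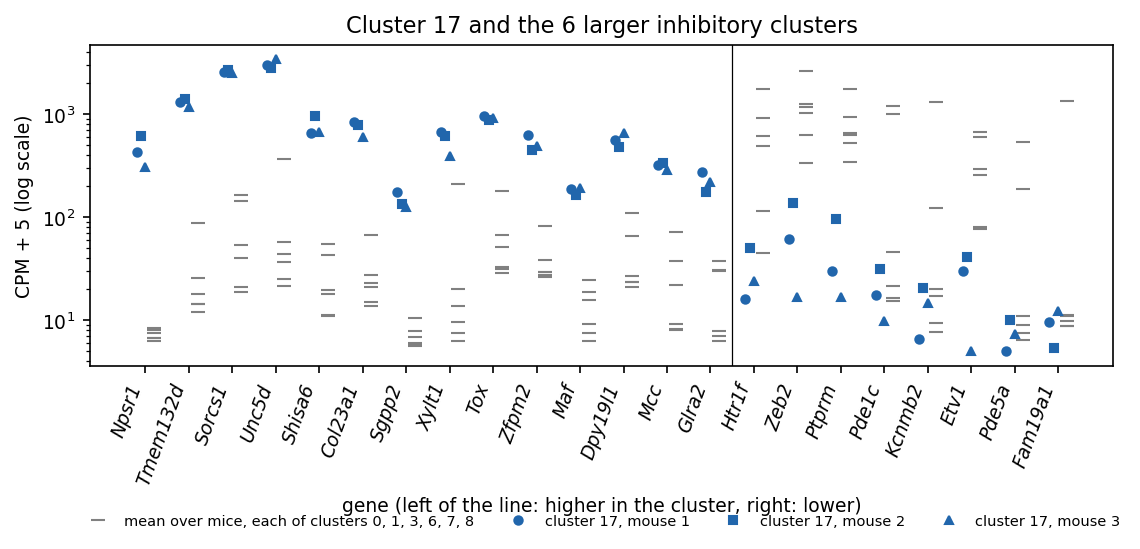
Markers give CPM + 5 on a log axis in cluster 17 of each mouse for its leading higher genes and its 8 lowest genes by log2 ratio, and grey dashes give the means over mice of each of the 6 larger inhibitory clusters. Left of the line the mice lie close together and above all dashes, as for Sorcs1 at 2490 to 2685 CPM, and right of the line some of the 6 clusters come down to the level of cluster 17.

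The list counts of cluster 17 that follow stand beside 0.872% higher and 0.647% lower over all genes. Of 17 listed GABA and glycine receptor genes 2 were higher and 1 lower, with a list median of −0.01. Gabrb2, a GABA receptor subunit, stood at 1034, 1008 and 963 CPM against 177 (2.47 ± 0.15), and Glra2, another glycine receptor subunit, at 270, 172 and 214 CPM against 15.03 (3.46 ± 0.27). Gabra2 was lower, with 44.5, 79.9 and 57.8 CPM against 429 (−2.76 ± 0.39). Clusters 15 and 17 thus each had a glycine receptor gene past 4-fold higher, Glra1 and Glra2. Kcnip4, which encodes a protein that binds A-type potassium channels, reached 10701, 9423 and 9825 CPM in cluster 17 against 987 (3.35 ± 0.32), whereas cluster 15 had 49.8, 104 and 42.1 CPM. Among receptors of peptides, Ntsr1, for neurotensin, was higher (2.73 ± 0.49), and Vipr2 and Tacr1 were lower, of 16 listed. Npsr1 was not on that list. The calcium sensor genes Ncald (2.95 ± 0.18), Hpcal1 (2.67 ± 0.19) and Cabp1 (2.25 ± 0.22) were higher, 3 of 13 listed calcium-binding genes, as were Kcns3, a potassium channel subunit gene, and Cacna2d3. Kcnip2, the muscarinic receptor gene Chrm3 and the matrix genes Col24a1, Fbn2 and Adamts19 were lower.

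Differences in transcription factor genes past 4-fold went both ways, with 4 higher and 4 lower of 40 listed, beside 0.872% and 0.647% of all genes. Maf, a basic leucine zipper factor gene, stood at 183, 160 and 185 CPM against 8.81 (3.73 ± 0.30), and Tox, an HMG-box gene, at 953, 875 and 915 CPM against 60.6 (3.81 ± 0.17). Nr2f1 and Foxp4 were the other members higher. Sp8, a zinc finger gene of bulb interneurons, was lower, with 4.77, 17.1 and 9.63 CPM against 99.7 (−2.83 ± 0.70), as was Etv1, an ETS factor, with 25.4, 36.2 and 0 CPM against 326 (−4.16 ± 1.67). Zic1 and Sall3 were lower too. Foxp2 stood at 1382, 1187 and 1260 CPM, within reach of cluster 8 at 1637 CPM, and Meis2 at 2608, 2705 and 2640 CPM against 3020, a level that cluster 15 did not have.

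Other genes were low in cluster 17. Calb2 stood at 19.1, 40.8 and 21.7 CPM against 503 (−4.03 ± 0.66). Htr1f, a serotonin receptor gene, stood at 11.1, 44.97 and 19.3 CPM against 653 (−4.61 ± 0.82), and Kcnmb2, a potassium channel subunit, at 1.59, 15.8 and 9.63 CPM against 242 (−4.28 ± 1.04). Cluster 7 was the highest of the 6 for all of these. Zeb2, Ptprm, Pde1c, Pde5a and Fam19a1 were the remaining lowest genes. Of these only Ptprm was past 4-fold below the lowest of the 6 clusters in every mouse, and without mouse 2 the number of lower genes was 184 in place of 72.

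At 1500 UMIs per nucleus, Unc5d was found in 95.8% of nuclei of cluster 17 (exact 95% interval 91.9 to 98.2), Sorcs1 in 94.2%, Tmem132d in 82.6% and Npsr1 in 33.2% (26.5 to 40.3). The highest share among the 6 clusters was 22.9%, 16.7%, 4.57% and 0.571% for the same genes. The oligodendrocyte cluster 16 had Sorcs1 in 49.6% of nuclei, so that this message is not restricted to inhibitory neurons. Npsr1 was found in 0.352% of cluster 9 and 0% of cluster 16. On chromosome 9, Npsr1 lies 95377 bases from Dpy19l1, which was also past 4-fold higher (3.65 ± 0.05).

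Cluster 17 is called by its number, since marker lists gave it no name beyond the genes of the rule. Gad1 stood at 413, 440 and 506 CPM, Gad2 at 268, 206 and 185 CPM and Slc32a1 at 162, 126 and 137 CPM, each below the mean of the 6 clusters in every mouse. In mean UMIs per nucleus, which depth does not divide out, Gad1 stood at 8.03 in cluster 17 and 6.46 in cluster 15. Gad2 went the other way, with 3.90 and 6.13, and Slc32a1 stood at 2.43 and 2.21. The cluster carried 4 of 9 granule cell markers (Meis2, Synpr, Tshz1 and Prkca) and 4 of 5 of intercalated amygdala neurons (Foxp2, Tshz1, Meis2 and Pbx3), lists that share Meis2 and Tshz1. Neither these markers nor the genes of the rule were among its 15 highest genes. Of 6 external plexiform layer markers it carried only Kcnc1. Of 7 caudal ganglionic eminence markers it carried only Adarb2, with 5355 CPM over the pooled mice, and Prox1 had 0 UMIs. That list summed to 4897 to 6159 CPM over mice, above the 261 to 4085 CPM of the 6 clusters, and nearly all of it was Adarb2. Markers of projection neurons summed to 16.9 to 62.5 CPM, a range that overlaps the 32.0 to 169 CPM of the 6 clusters and reaches below it. Slc17a7, the vesicular glutamate transporter gene, stood at 14.3, 21.2 and 12.04 CPM against 27.9.

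Few genes of cluster 21 passed 4-fold in all 3 mice, and the counts changed with the mice used. Of 11414 genes, 1 (0.00876%) was past 4-fold higher in every mouse and 26 (0.228%) past 4-fold lower. With the mean over mice in place of each mouse, 40 were higher and 652 lower. Without mouse 1 the counts were 24 and 34, without mouse 2 they were 77 and 1133 and without mouse 3 they were 4 and 52. The gene higher in every mouse was Cd9, a tetraspanin gene that is high in glia, with 95.1, 50.8 and 37.5 CPM against 8.45 (2.24 ± 0.28), from 2, 15 and 2 UMIs. Of 324 listed genes that reached 10 CPM, 0 were past 4-fold in either direction. The median log2 ratio over all genes was −0.53, and at this depth many genes at 10 CPM cannot be seen in mouse 1.

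Markers of several lists were carried in cluster 21, and some of these lists share genes. It carried 8 of 9 granule cell markers, with Pcp4, which encodes a calmodulin regulator, at 2900, 1590 and 880 CPM against 440. It also carried 9 of 12 markers of immature neurons, 5 of 10 of striatal projection neurons and 3 of 5 of intercalated amygdala neurons. Further, 3 of 6 markers of deep short-axon cells and 3 of 7 on the general list of projection neurons were carried. Tshz1 and Meis2 count for both the granule cell and the intercalated list. Penk counts for the granule cell, striatal and deep short-axon lists. Of the carried markers, Drd1, Ppp1r1b, Rgs9 and Pdyn rested on 2, 2, 3 and 1 UMIs. None exceeded the 8.12 CPM that a count of 0 allows here. Without these and the shared genes, the striatal list leaves Bcl11b, the intercalated list Oprm1 and the deep short-axon list Nos1. The striatal list summed to 525 to 693 CPM over mice and the deep short-axon list to 506 to 1949 CPM. These sums lay within the 397 to 1152 CPM and 172 to 2484 CPM of the 6 clusters. Slc17a7 stood at 47.5, 163 and 318 CPM against 27.9 and Cdhr1, a cadherin-related gene of mitral and tufted cells, at 47.5, 163 and 187 CPM against 19.9. At 1500 UMIs a Slc17a7 UMI was found in 21.4% of its nuclei (exact 95% interval 13.9 to 30.5), against at most 5.68% in the 6 clusters and 4.75% in cluster 9. The projection neuron list summed to 143 to 693 CPM over mice, against 32.0 to 169 CPM in the 6 clusters, and none of its markers was at 0 over the pooled mice. The list of ensheathing glia, of whose 6 markers 0 were carried, summed to 356 to 1426 CPM against 50.1 to 818 CPM, with Npy at 1188, 119 and 112 CPM. With a median depth of only 0.258 times that of its mice when pooled and markers of more than 1 class carried, the cluster was left unnamed. The parts of depth, free RNA and doublets in these levels were not tested.

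Most of the 8 lowest genes of cluster 21 had few UMIs or none. Zfp536, a zinc finger gene, had 0 UMIs in all mice, at least 9.38-fold lower than the mean of the 6 clusters by the limit of 8.12 CPM that 3 counts over the pooled cluster give. That mean rests on clusters 6, 7 and 8, and the lowest of the 6, at 1.24 CPM, lies below the limit. Spon1 stood at 0, 13.6 and 0 CPM against 191 and St3gal3 at 0, 13.6 and 0 CPM against 96.6. Fam19a1, Pde5a, Thsd4, Il1rapl2 and Angpt1 completed the 8 lowest, with log2 ratios between −3.63 and −4.15. A single UMI would have given 47.5 CPM in mouse 1, 3.39 CPM in mouse 2 and 18.7 CPM in mouse 3. Past 4-fold below the lowest of the 6 clusters in every mouse were 6 genes, among them St3gal3, Mthfd1, Traf6, Prkaa1 and Pms2.

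The kept clusters were also set against each other. Between clusters 15 and 17, 141 of 10350 genes (1.36%) were past 4-fold higher in cluster 15 in every mouse and 212 (2.05%) in cluster 17. Vip led in cluster 15 (7.91 ± 0.63 on the log2 scale), followed by Kit, for which cluster 17 had 0, 1.67 and 0 CPM. Pde1c, a phosphodiesterase gene, stood at 2018, 1982 and 2099 CPM in cluster 15 and at 12.7, 26.2 and 4.82 CPM in cluster 17. In the other direction led Unc5d, with 8.30, 21.7 and 3.24 CPM in cluster 15 (−7.74 ± 0.99), then Sorcs1, Tmem132d and Kcnip4 (−7.25 ± 0.71). Both clusters were past 4-fold higher than the 6 clusters for Zfpm2, a zinc finger cofactor gene, with 558, 503 and 538 CPM in cluster 15 and 616, 447 and 491 CPM in cluster 17. They were compared with the same 6 clusters, so these values are set side by side only.

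Against cluster 21, cluster 15 was past 4-fold higher for 135 of 10625 genes (1.27%) and lower for 22 (0.207%). Vip again led (7.67 ± 2.25), and Kcnip4 was among the genes higher in cluster 21, with 238, 1200 and 1424 CPM. Cluster 17 was past 4-fold higher than cluster 21 for 151 of 10620 genes (1.42%), led by Tmem132d and Foxp2, and lower for 170 (1.6%), among them Shisa8 with 19.1, 36.6 and 7.23 CPM against 1569, 230 and 243. The 9 nuclei of cluster 21 in mouse 1 limit these counts.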

How the data were processed

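The authors deposited 1 matrix of unnormalized UMI counts for each mouse. The submitters' notes name Cell Ranger (3.0.2 in the matrix headers) and the builds mm10 and GRCm38. A further deposited table, made by the authors in Seurat, gives for each retained nucleus other values (mouse and cluster number) and the percent of mitochondrial UMIs. The clusters and gene lists were chosen with earlier results of these data known. Libraries were 1 per mouse, so n = 3.

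UMIs were summed per mouse and cluster and divided by the total (CPM). Log2 ratios used CPM + 5 and genes of at least 10 CPM in the cluster or any of the 6 reference clusters. A gene was counted where the ratio passed 4-fold in each of the 3 mice. Named were the 15 highest and 8 lowest such genes, every list member past the fold and the genes of the rule. Genes with no given name were not described, apart from neighbours of Glra1 and from Gm32647. The 15 lists held 415 genes. A marker counted as carried at 25% of the highest cluster or more. Gene positions came from the GENCODE vM21 annotation, which matched 31011 of 31055 identifiers. Some genes are not reported here. No test was run. Thinning drew UMIs without replacement with a fixed seed. Intervals are exact (Clopper-Pearson, 95%). Summing and counting were tested on simulated data. Doublets were not called. Python 3.11.15, numpy 2.4.6, pandas 2.3.3, scipy 1.17.1, edgeR 4.0.16 and DESeq2 1.42.0 (R 4.3.3, scaling factors only) were used. Alternatives covered the threshold of the rule, depth, added CPM, filter, scaling, reference and mice.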

Additional observations from a re-analysis of the deposited data

How the results depend on the processing

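The rule kept 5 clusters at 20% of the highest cluster, 2 at 33% (15 and 21) and 2 with mean UMIs per nucleus in place of CPM (15 and 17, an alternative chosen after seeing the data), so only cluster 15 was kept under each of these. As a share of the kept and the 6 larger inhibitory clusters, clusters 15, 17 and 21 made up 1.58%, 0.956% and 0.478% of nuclei, and cluster 21 made up 0.0636% at a minimum of 1500 genes. In cluster 15 the number of higher genes was 32 against the highest of the 6 clusters. The number of lower genes was 175 with 1 CPM added, 0 against the lowest of the 6, 300 with the mean over mice, 162 with UMIs of the mice pooled (also chosen after seeing the data) and 86 to 296 when a mouse was left out. In cluster 17 the number of higher genes was 19 against the highest of the 6, 146 with the mean over mice and 151 pooled. The number of lower genes was 184 with 1 CPM added, 43 with size factors, 1 against the lowest of the 6, 204 with the mean over mice, 131 pooled and 79 to 184 when a mouse was left out. In cluster 21 the number of higher genes was 4 with 1 CPM added, 0 with 10 CPM added, with TMM, with size factors and against the highest of the 6, 40 with the mean over mice, 26 at 1500 genes, 45 pooled and 4 to 77 when a mouse was left out. The number of lower genes was 263 with 1 CPM added, 7 with 10 CPM added, 48 with TMM, 16 with the 6 clusters pooled, 6 against the lowest of the 6, 652 with the mean over mice, 117 at 1500 genes, 52 pooled and 34 to 1133 when a mouse was left out. Listed genes lower in cluster 21 numbered 3 with TMM. At 2500 UMIs Vip was found in 88.4% of cluster 15 and Sorcs1 in 100% of cluster 17. Where no value above shows it, the cause was not tested. Scaling moved the median of all genes from −0.53 to −0.84 (TMM) or −0.76 (size factors) in cluster 21, and by less in the others. Of 385 alternative values of 55 named genes, 0 changed sign and 48 moved by more than 1 SD over mice. These genes were named for passing 4-fold in the same direction in every mouse. Leaving out a mouse could thus not change their sign, and nothing is read from the 0. For the 3 genes of the rule 5 of 63 values changed sign, all in cluster 21. There Gad1 moved from 0.30 to −0.31 with TMM and −0.15 with size factors, and Slc32a1 from 0.11 to −0.47, −0.33 and, without mouse 1, −0.07. Of the mice, leaving out mouse 2 changed the counts of lower genes most in each cluster. All ratios between clusters were taken within each mouse, and with 1 group of mice there was no comparison of groups to pair.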
